A study of Mus musculus with 12 samples.

Results

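The C/EBP family members Cebpa, Cebpb, Cebpd and Cebpe, the transcription factors Gfi1, Irf8, Spi1 and Runx1, and the pseudokinase gene Trib1 direct how early blood cells take up the granulocyte and monocyte fates. These 9 genes were chosen as a named list, by gene symbol, from the 53465 genes of the expression table, and each of them had 1 row in it. They were followed in LSKs, the Lin- Sca-1+ c-Kit+ fraction of mouse bone marrow that holds stem cells and multipotent progenitors. RNA came from 12 libraries in 4 groups of 3: untreated Tespa1+/+, untreated Tespa1-/-, Tespa1+/+ at day 9 after 5-FU and Tespa1-/- at day 9 after 5-FU. 5-FU (5-fluorouracil), given once at 150 mg/kg, kills cycling blood cells and forces the surviving stem cells to rebuild the marrow. Tespa1-/- mice were of the line B6.129S-Tespa1tm1Smoc backcrossed to C57BL/6, a germline knockout, wild type libraries came from littermates, and the mice were males of 8 to 10 weeks. Cells were sorted after magnetic removal of mature lineage cells.

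C/EBP alpha, the product of Cebpa, starts the granulocyte and monocyte programme, and C/EBP epsilon, the product of Cebpe, drives the late step in which secondary granules are made. C/EBP beta serves emergency production of granulocytes and is quickly induced by cytokines, and C/EBP delta rises in inflammation. PU.1, encoded by Spi1, is needed for all myeloid cells, and Runx1 sets up its expression in stem cells. Gfi1 is a repressor that favours granulocytes, Irf8 favours monocytes and dendritic cells, and the 2 counteract each other. The protein made from Trib1 brings C/EBP alpha to the ubiquitin ligase COP1, which leads to its degradation.

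The total count per library ranged from 22118154 to 28275079, so that 3 counts, the limit below which a gene was treated as not detected, stood for 0.106 to 0.136 CPM (counts scaled to library size). All 9 genes passed the filter on low counts in every comparison, although Cebpe was at 0 counts in 1 library of each Tespa1+/+ group and passed in both genotype comparisons only with the Tespa1-/- libraries. Tespa1 itself was at 49.8, 43.0 and 46.6 CPM in untreated Tespa1+/+ LSKs and at 34.5, 34.9 and 34.8 CPM in untreated Tespa1-/- LSKs. After 5-FU it was at 47.2, 55.0 and 57.5 CPM in Tespa1+/+ LSKs and at 20.8, 19.8 and 17.3 CPM in Tespa1-/- LSKs. Tespa1 reads were lower in Tespa1-/- libraries in both settings but not absent. The summed level of 9 LSK markers (Kit, Ly6a, Cd34, Flt3 and others) was 1570 to 1636 CPM in untreated Tespa1+/+, 1313 to 1357 CPM in untreated Tespa1-/-, 1294 to 1337 CPM in 5-FU Tespa1+/+ and 782 to 846 CPM in 5-FU Tespa1-/- libraries. All 9 LSK markers were detected in every group. The 5-FU Tespa1-/- libraries also stood apart in genes that mark mature cells: 10 neutrophil markers summed to 975 to 994 CPM there, against at most 10.6 CPM in any library of the other 3 groups. In the same libraries 6 erythroid markers summed to 311 to 319 CPM, against at most 21.9 CPM elsewhere. The eosinophil genes Prg2 and Epx had means of 391 and 201 CPM there, against at most 0.966 and 0.600 CPM in any other group. Cxcr2, a receptor of late neutrophils, had a log2 fold change of -0.44 (SE 0.45) between genotypes after 5-FU and was not called. Ly6g was at 43, 15 and 35 counts in 5-FU Tespa1-/- libraries against 0, 0 and 6 in Tespa1+/+ ones, without overlap. It passed the filter only through the Tespa1-/- libraries, so no test is given for it. Tespa1+/+ untreated replicate 1 was the 1 library of 12 that was more like a library of another group, untreated Tespa1-/- replicate 1 (correlation of log2(CPM + 1) across genes 0.985), than its own group on average (0.983). Without it, as with it, 3 members were called between genotypes in untreated LSKs, 3 with 5-FU in wild type and 3 in the interaction. In bulk RNA, a larger share of cells of a type and more RNA per cell cannot be told apart.

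On GRCm38 the genes lie at chr7:35119293-35121928 (Cebpa, plus strand), chr2:167688915-167690418 (Cebpb, plus), chr16:15887286-15891031 (Cebpd, plus), chr14:54710360-54712174 (Cebpe, minus), chr5:107716657-107726036 (Gfi1, minus), chr8:120736358-120756694 (Irf8, plus), chr2:91082390-91115756 (Spi1, plus), chr16:92601466-92826149 (Runx1, minus) and chr15:59648350-59657099 (Trib1, plus). Counts cover their annotated exons, and for 5 of them (Cebpa, Cebpb, Cebpd, Gfi1 and Runx1) GENCODE M21 has an exon of another gene on the opposite strand. The partners of Cebpa and Runx1, Gm45091 and Gm26626, were at most at 0.542 CPM and at 0.

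Promoter sequences from RefSeq (GRCm38.p6) were at hand for 5 of the 9 genes, Cebpa, Cebpb, Gfi1, Irf8 and Runx1, in 8 windows of the 250 bases before an annotated start. Cebpb and Gfi1 are shown because their levels changed most among these 5, and Cebpa because it changed between genotypes in both settings. The windows are Cebpb at chr2:167688665-167688914 (plus strand), the upstream one of 2 for Gfi1 at chr5:107725806-107726055 (minus strand) and Cebpa at chr7:35119043-35119292 (plus strand). Each is written 5′ to 3′ on the strand of the gene, and capitals mark motif matches on either strand.
Cebpb: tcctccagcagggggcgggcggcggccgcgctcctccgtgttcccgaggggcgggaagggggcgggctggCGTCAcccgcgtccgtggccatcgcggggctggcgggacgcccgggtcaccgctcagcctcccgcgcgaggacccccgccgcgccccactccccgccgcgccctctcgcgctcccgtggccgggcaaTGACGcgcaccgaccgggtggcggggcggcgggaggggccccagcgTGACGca
Gfi1: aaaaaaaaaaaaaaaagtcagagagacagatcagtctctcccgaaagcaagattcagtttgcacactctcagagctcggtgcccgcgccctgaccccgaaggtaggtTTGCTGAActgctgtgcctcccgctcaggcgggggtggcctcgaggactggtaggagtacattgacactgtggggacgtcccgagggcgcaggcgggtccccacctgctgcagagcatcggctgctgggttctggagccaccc
Cebpa: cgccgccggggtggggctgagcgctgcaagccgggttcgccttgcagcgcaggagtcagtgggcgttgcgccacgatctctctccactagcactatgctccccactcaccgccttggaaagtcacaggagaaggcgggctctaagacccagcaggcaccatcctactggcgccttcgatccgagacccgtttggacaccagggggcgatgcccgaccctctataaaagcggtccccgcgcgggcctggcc
The 6 motifs searched were TTGCNNAA for C/EBP, GAGGAA for PU.1, TGTGGT for RUNX, AATCA for the GFI1 core, TGACG for the short site bound by CREB and ATF factors, and GAAANNGAAA for IRF. The Cebpb window held 3 matches to TGACG, which began 180, 53 and 7 bases before the start, and 17.7% of 32817 mouse promoter windows of this length held at least 1. The Gfi1 window held 1 match to TTGCNNAA, 143 bases before the start, which 9.57% of windows held. The Cebpa window and the downstream Gfi1 window held none of the 6. In the windows of Irf8 and Runx1, AATCA (33.7% of windows) matched 3 times in Irf8 and 2 times in Runx1, and GAGGAA (23.3% of windows) matched once in Runx1. No match overlapped another. TGTGGT (14.0% of windows) and GAAANNGAAA (2.97% of windows) had no match in the windows of these genes. These are matches of letters and do not show binding.

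**Figure D1:**
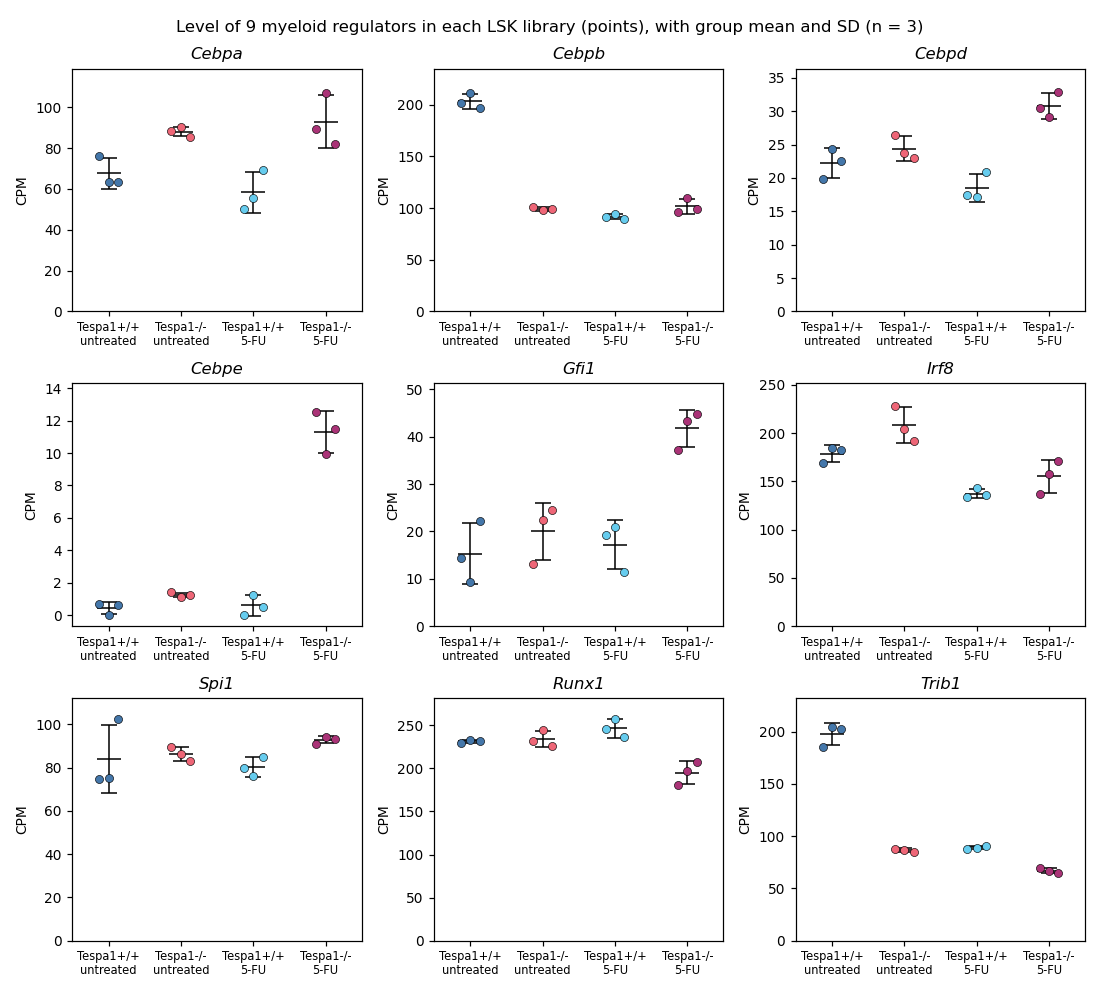
CPM (y axis, linear, one scale per gene) of each of the 9 genes in the 12 LSK libraries, grouped by genotype and treatment on the x axis. Points are libraries, the long bar is the group mean and the whiskers are the SD (n = 3). Cebpb and Trib1 are highest in the 3 untreated Tespa1+/+ libraries, and Cebpe and Gfi1 in the 3 Tespa1-/- libraries taken after 5-FU.

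Levels of different genes were compared as deposited FPKM, which divides by transcript length. Cebpb was the most abundant of the 9 genes in all 4 groups, at 133 ± 4.88 FPKM in untreated Tespa1+/+, 65.7 ± 1.13 in untreated Tespa1-/-, 62.3 ± 1.69 in 5-FU Tespa1+/+ and 67.4 ± 4.50 FPKM in 5-FU Tespa1-/- LSKs (mean ± SD, n = 3). In untreated Tespa1+/+ LSKs, Trib1 (26.3 FPKM), Spi1 (25.1), Irf8 (20.3), Cebpa (13.9), Runx1 (12.5), Cebpd (5.26), Gfi1 (3.11) and Cebpe (0.357 FPKM) followed. In that order 7 of the 8 neighbouring pairs had ranges that did not overlap, the exception being Trib1 and Spi1. In untreated Tespa1-/- LSKs, Trib1 dropped from the second to the sixth place at 11.6 FPKM, and again 7 of 8 neighbouring pairs were apart, with Spi1 and Irf8 overlapping. In 5-FU Tespa1+/+ LSKs 5 of 8 pairs were apart, with Runx1, Cebpa and Trib1 overlapping in turn and Cebpd overlapping Gfi1. In 5-FU Tespa1-/- LSKs only 3 of 8 were apart, since Cebpa overlapped Irf8, and Runx1, Cebpe, Trib1, Gfi1 and Cebpd followed each other between 10.7 and 7.36 FPKM with overlapping neighbours. Cebpe, the last of the 9 in the other groups, was sixth there, at 9.10 ± 1.06 FPKM.

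The first comparison asked what loss of Tespa1 changes in untreated LSKs. Of the 9 genes, 1 (Cebpa) was higher in Tespa1-/- LSKs at an adjusted p below 0.05, where 1.64% of the 17055 genes tested were higher. Lower were 2 of the 9 (Cebpb and Trib1), where 3.59% of all genes were lower. The 2 groups of libraries did not overlap for 5 of the 9, against 25.6% of all genes. The median log2 fold change of the 9 genes was 0.14 and that of all genes 0.01. Cebpe is among the 5 without overlap and passed the filter only with the Tespa1-/- libraries. Nothing is therefore read from that count or from the median. Adjusted p-values here and below come from the quasi-likelihood test of edgeR and were adjusted by Benjamini-Hochberg over all genes tested in a comparison. Since the labels do not state that replicates came from separate animals, p-values measure the spread between these libraries, which may be technical.

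Cebpb, the factor of emergency granulopoiesis, was at 201, 211 and 197 CPM in untreated Tespa1+/+ LSKs and at 101, 97.8 and 99.0 CPM in untreated Tespa1-/- LSKs. All Tespa1-/- libraries lay far below all Tespa1+/+ ones, at a level 2.04-fold lower (log2 fold change -1.03, SE 0.05, adjusted p = 3.31e-05, edgeR). A stretch of 312 bases of its transcript lies opposite an exon of Tmem189 on the other strand, and the counting strand is not stated, but Tmem189 was at only 10.9 to 18.1 CPM and its log2 fold change was -0.04 (SE 0.19). Trib1, which directs C/EBP alpha to degradation, was at 185, 204 and 203 CPM in Tespa1+/+ and at 88.1, 87.1 and 84.5 CPM in Tespa1-/- LSKs. This gene was 2.28-fold lower (log2 fold change -1.19, SE 0.06, adjusted p = 3.31e-05, edgeR), and no exon of another gene overlaps it.

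Cebpa, whose protein is the substrate of the Trib1 and COP1 complex, moved the other way. It was at 76.2, 63.3 and 63.3 CPM in untreated Tespa1+/+ and at 88.6, 90.1 and 85.6 CPM in untreated Tespa1-/- LSKs, with no overlap. The rise was 1.30-fold (log2 fold change 0.38, SE 0.09, adjusted p = 0.0419, edgeR). This call was a narrow one: without 1 library it passed only when Tespa1+/+ replicate 1 was left out, and the adjusted p over these 6 fits ran from 0.0135 to 0.167. The transcript of the partner ligase, Cop1, did not pass the test, with a log2 fold change of 0.04 (SE 0.09). Trib2, a relative of Trib1 that also targets C/EBP alpha, was at 3.60, 6.13 and 3.89 CPM in Tespa1+/+ and at 10.4, 10.3 and 8.77 CPM in Tespa1-/- LSKs. It rose by 1.12 on the log2 scale (SE 0.24, adjusted p = 0.0347, edgeR), the opposite direction to Trib1.

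The other 6 genes did not pass the test in untreated LSKs. Irf8 was at 168, 185 and 183 CPM in Tespa1+/+ and at 228, 204 and 192 CPM in Tespa1-/- LSKs, which did not overlap, with a log2 fold change of 0.22 (SE 0.07, adjusted p = 0.143, edgeR). Cebpe was near the detection limit, at 20, 0 and 14 counts in Tespa1+/+ and 32, 26 and 28 counts in Tespa1-/- libraries. Its log2 fold change of 1.47 had an SE of 0.92 (adjusted p = 0.456, edgeR). Gfi1 varied widely among replicates, from 9.33 to 22.2 CPM in Tespa1+/+ and from 13.2 to 24.4 CPM in Tespa1-/- libraries. The log2 fold changes of Cebpd, Spi1 and Runx1 were 0.14 (SE 0.12), 0.04 (SE 0.12) and 0.02 (SE 0.05). Marker sums also moved between these groups: 8 monocyte markers summed to 325 to 360 CPM in Tespa1+/+ and 462 to 488 CPM in Tespa1-/- libraries. Of these 3 were called higher (F13a1, Csf1r and Ly6c2) and 1 lower (Cd14), beside 1.64% and 3.59% of all genes. Mean F13a1 went from 104 to 206 CPM and mean Cd14 from 10.8 to 3.53 CPM. The 6 B cell markers summed to 57.7 to 66.9 CPM and 34.0 to 41.3 CPM, with 3 of the 5 tested called lower. Of the 9 LSK markers 3 were also called lower, beside the same 3.59% of all genes. Neutrophil markers summed to 1.77 to 2.31 CPM and 4.93 to 5.81 CPM, megakaryocyte markers to 44.2 to 50.8 CPM and 74.9 to 79.9 CPM, erythroid markers to 5.85 to 10.4 CPM and 12.5 to 15.4 CPM, and T and NK cell markers to 22.5 to 24.5 CPM and 25.5 to 30.1 CPM. Those of basophils, mast cells and eosinophils summed to 81.2 to 94.3 CPM and 99.3 to 123 CPM. The part of these cells in the changes of Cebpa, Cebpb and Trib1 was not tested.

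**Figure D2:**
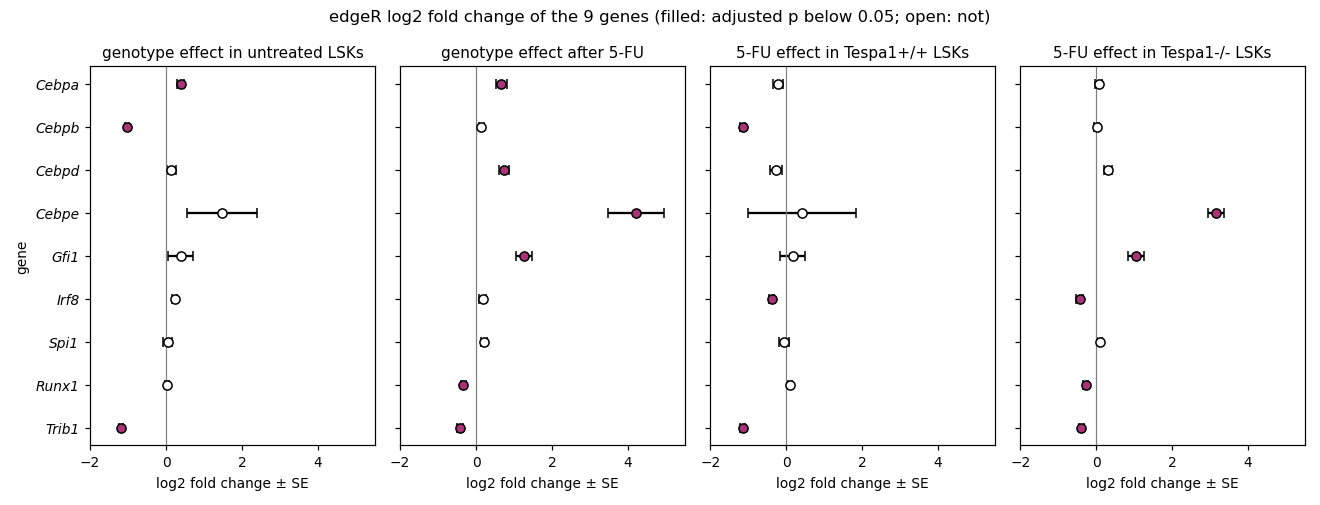
edgeR log2 fold change with its SE (x axis) of each of the 9 genes (y axis) in the 4 comparisons, 3 libraries against 3. Filled points have an adjusted p below 0.05. The fall of Cebpb and Trib1 in untreated Tespa1-/- LSKs and the rise of Cebpe and Gfi1 in Tespa1-/- LSKs after 5-FU lie farthest from 0 among the filled points of the genotype comparisons.

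The second comparison asked what loss of Tespa1 changes in LSKs rebuilding the marrow at day 9 after 5-FU. Here 4 of the 9 genes (Cebpa, Cebpd, Cebpe and Gfi1) were higher in Tespa1-/- LSKs, where 7.34% of the 17239 genes tested were higher. Cebpe passed the filter on low counts only through the Tespa1-/- group, where it was high. Nothing is therefore read from the count of 4, or from the count without overlap and the median below, which include it. Lower were 2 (Runx1 and Trib1), where 5.78% of all genes were lower. The groups did not overlap for 8 of the 9, against 33.0% of all genes. The median log2 fold change of the 9 was 0.20 and that of all genes -0.01.

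The 2 regulators most tied to granulocytes changed most. Cebpe was at 0, 1.27 and 0.537 CPM in Tespa1+/+ LSKs and at 12.5, 9.92 and 11.5 CPM in Tespa1-/- LSKs after 5-FU. The counts behind these were 0, 33 and 13 against 342, 256 and 255, and no Tespa1+/+ library came near a Tespa1-/- one. The difference was a log2 fold change of 4.21 (SE 0.74, adjusted p = 0.00541, edgeR), with 3.63 to 5.40 when any 1 library was left out. Since Cebpe entered this fit only through the Tespa1-/- libraries, the fit over all genes with no filter is given beside it, at 4.22 (SE 0.71, adjusted p = 0.00421, edgeR). Gfi1 was at 19.3, 21.0 and 11.4 CPM in Tespa1+/+ and at 37.3, 43.2 and 44.7 CPM in Tespa1-/- LSKs, 2.41-fold higher (log2 fold change 1.27, SE 0.21, adjusted p = 0.00411, edgeR). An exon of A430072P03Rik lies opposite 101 bases of Gfi1, and that gene was at 0.234 to 0.661 CPM in Tespa1+/+ and 1.24 to 1.44 CPM in Tespa1-/- LSKs after 5-FU, also without overlap. Its log2 fold change was 1.38 (SE 0.62), which did not pass the test.

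Cebpa was at 50.2, 55.4 and 69.3 CPM in Tespa1+/+ and at 89.5, 107 and 81.9 CPM in Tespa1-/- LSKs. It was 1.59-fold higher (log2 fold change 0.67, SE 0.14, adjusted p = 0.0114, edgeR), and the call held without any 1 library. Cebpd was at 17.5, 17.2 and 20.9 CPM in Tespa1+/+ and at 30.4, 29.1 and 32.9 CPM in Tespa1-/- LSKs, with all Tespa1-/- libraries above. This was 1.66-fold (log2 fold change 0.73, SE 0.13, adjusted p = 0.00659, edgeR), but 562 bases of the gene lie opposite an exon of Spidr, which was at 30.1 to 44.1 CPM. Without strand in the counting, reads of Cebpd and Spidr in that stretch cannot be told apart, so the level of Cebpd is uncertain. Spidr itself had a log2 fold change of 0.07 (SE 0.16).

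Runx1, which maintains stem and progenitor identity and helps to switch on Spi1, was at 245, 257 and 236 CPM in Tespa1+/+ and at 181, 197 and 207 CPM in Tespa1-/- LSKs. All Tespa1-/- libraries lay below, by 1.27-fold (log2 fold change -0.34, SE 0.07, adjusted p = 0.00843, edgeR). Trib1 was at 87.8, 88.9 and 91.0 CPM in Tespa1+/+ and at 69.4, 66.8 and 64.3 CPM in Tespa1-/- LSKs, 1.34-fold lower (log2 fold change -0.42, SE 0.07, adjusted p = 0.00421, edgeR). The changes of both genes were below 1.5-fold, unlike those of the 4 genes that rose.

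Cebpb, which differed so widely before treatment, was at 91.6, 94.3 and 89.5 CPM in Tespa1+/+ and at 95.9, 109 and 99.5 CPM in Tespa1-/- LSKs after 5-FU. Its log2 fold change was 0.14 (SE 0.07, adjusted p = 0.251, edgeR). Spi1 was at 79.8, 76.1 and 85.0 CPM against 91.1, 94.4 and 93.1 CPM, with no overlap, and a log2 fold change of 0.20 (SE 0.07, adjusted p = 0.0953, edgeR). The ranges of Irf8 overlapped, with 134 to 143 CPM in Tespa1+/+ and 137 to 171 CPM in Tespa1-/- LSKs.

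The markers of other cells moved with the same libraries. After 5-FU, 6 of 9 LSK markers were called lower in Tespa1-/- LSKs and none higher, beside 5.78% and 7.34% of all genes. The median log2 fold change of these markers was -0.78, against -0.01 for all genes. Not called were Procr (-0.49, SE 0.24), Cd48 (-0.43, SE 0.13) and Slamf1 (0.06, SE 0.22). For the other cells summed levels are given, since several of their markers passed the filter on low counts only through the group where they were high. The neutrophil markers summed to 7.82 to 10.6 CPM in Tespa1+/+, with Cd177 and Retnlg at 0, and to 975 to 994 CPM in Tespa1-/- libraries, with none at 0. The erythroid markers summed to 10.5 to 21.9 CPM and 311 to 319 CPM, and the 7 markers of basophils, mast cells and eosinophils to 168 to 202 CPM and 760 to 857 CPM. Within these 7, the eosinophil genes Prg2 and Epx had means of 0.182 and 0.0648 CPM in Tespa1+/+ and 391 and 201 CPM in Tespa1-/- libraries. Gata2 went the other way, with means of 166 and 150 CPM. The 8 monocyte markers summed to 381 to 408 CPM and 483 to 496 CPM. Of these 1 was called higher (F13a1) and 2 lower (Ccr2 and Ms4a6c), beside 7.34% and 5.78% of all genes. Mean F13a1 was 91.6 CPM in Tespa1+/+ and 207 CPM in Tespa1-/- libraries. B cell markers summed to 249 to 255 CPM and 263 to 293 CPM, T and NK cell markers to 29.5 to 38.2 CPM and 52.6 to 61.0 CPM, and megakaryocyte markers to 173 to 194 CPM and 251 to 263 CPM. The part of such cells in the differences of Cebpe, Gfi1, Cebpa, Cebpd, Runx1 and Trib1 after 5-FU was not tested.

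In wild type LSKs, 5-FU left 0 of the 9 genes called higher at day 9, where 3.77% of the 17002 genes tested were higher. The count of higher genes was also 0 at an unadjusted p below 0.05 in edgeR, and 0 at an adjusted p below 0.05 in DESeq2. Of all 17002 genes, 3648 had an unadjusted p below 0.05 in either direction, and 1003 were higher in DESeq2. A count of 0 among 9 genes is near such shares. Lower were 3 of the 9 (Cebpb, Trib1 and Irf8), where 4.18% of all genes were lower, and the groups did not overlap for 4 of the 9, against 28.5% of all genes. The median log2 fold change of the 9 was -0.21 and that of all genes 0.01. This comparison shares the untreated Tespa1+/+ libraries with the first one.

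From the 197 to 211 CPM of untreated Tespa1+/+ LSKs, Cebpb came to 89.5 to 94.3 CPM after 5-FU, 2.21-fold lower (log2 fold change -1.14, SE 0.06, adjusted p = 1.80e-05, edgeR). Trib1 came from 185 to 204 CPM down to 87.8 to 91.0 CPM, likewise 2.21-fold lower (log2 fold change -1.14, SE 0.07, adjusted p = 1.95e-05, edgeR). For both genes the untreated Tespa1+/+ libraries therefore stood above the other 9 libraries. Irf8, the monocyte factor, came from 168 to 185 CPM down to 134 to 143 CPM, 1.30-fold lower (log2 fold change -0.38, SE 0.07, adjusted p = 0.00765, edgeR). Cebpa, Cebpd, Cebpe, Gfi1, Spi1 and Runx1 had log2 fold changes between -0.26 and 0.41, none past the threshold. Markers of several cells moved with this comparison. From untreated to 5-FU libraries, the sum of B cell markers went from 57.7 to 66.9 CPM to 249 to 255 CPM, that of megakaryocyte markers from 44.2 to 50.8 CPM to 173 to 194 CPM, and that of basophil, mast cell and eosinophil markers from 81.2 to 94.3 CPM to 168 to 202 CPM. The sum of monocyte markers went from 325 to 360 CPM to 381 to 408 CPM, that of T and NK cell markers from 22.5 to 24.5 CPM to 29.5 to 38.2 CPM, and that of erythroid markers from 5.85 to 10.4 CPM to 10.5 to 21.9 CPM. The sum of neutrophil markers went from 1.77 to 2.31 CPM to 7.82 to 10.6 CPM, and that of LSK markers from 1570 to 1636 CPM to 1294 to 1337 CPM. Within the LSK sum, mean Flt3 went from 610 to 314 CPM and mean Cd34 from 397 to 267 CPM. Of the 9 LSK markers 2 were called higher (Slamf1 and Mecom) and 2 lower (Flt3 and Cd34), beside 3.77% and 4.18% of all genes. The median log2 fold change of these markers was 0.54, against 0.01 for all genes. The part of such cells in the changes of Cebpb, Trib1 and Irf8 was not tested.

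In Tespa1-/- LSKs, 2 of the 9 genes (Cebpe and Gfi1) were called higher after 5-FU, where 10.7% of the 17228 genes tested were higher. Lower were 3 (Irf8, Runx1 and Trib1), where 8.64% of all genes were lower, and the groups did not overlap for 7 of the 9, against 38.6% of all genes. The median log2 fold change of the 9 was 0.06 and that of all genes -0.01. These fits share the Tespa1-/- libraries with both genotype comparisons.

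Cebpe rose from 1.15 to 1.40 CPM up to 9.92 to 12.5 CPM, 8.87-fold (log2 fold change 3.15, SE 0.21, adjusted p = 2.00e-05, edgeR). Gfi1 rose from 13.2 to 24.4 CPM up to 37.3 to 44.7 CPM, 2.07-fold (log2 fold change 1.05, SE 0.21, adjusted p = 0.00765, edgeR). Irf8 fell from 192 to 228 CPM down to 137 to 171 CPM, 1.35-fold lower (log2 fold change -0.44, SE 0.09, adjusted p = 0.0108, edgeR). In wild type its log2 fold change with 5-FU was -0.38 (SE 0.07). Trib1 fell from 84.5 to 88.1 CPM down to 64.3 to 69.4 CPM (log2 fold change -0.39, SE 0.06, adjusted p = 0.00259, edgeR), a smaller step than in wild type. Runx1 was 1.21-fold lower (log2 fold change -0.28, SE 0.06, adjusted p = 0.0133, edgeR), a call lost without untreated Tespa1-/- replicate 2 (adjusted p = 0.0607). Cebpb was not called, with 97.8 to 101 CPM before and 95.9 to 109 CPM after (log2 fold change 0.02, SE 0.06). The marker sums moved here as well. Those of neutrophils went from 4.93 to 5.81 CPM to 975 to 994 CPM, those of erythroid cells from 12.5 to 15.4 CPM to 311 to 319 CPM, and those of basophils, mast cells and eosinophils from 99.3 to 123 CPM to 760 to 857 CPM. B cell markers went from 34.0 to 41.3 CPM to 263 to 293 CPM, megakaryocyte markers from 74.9 to 79.9 CPM to 251 to 263 CPM, and LSK markers from 1313 to 1357 CPM to 782 to 846 CPM. Of the 9 LSK markers 3 were called higher and 3 lower, beside 10.7% and 8.64% of all genes. Their median log2 fold change was -0.22. Monocyte markers went from 462 to 488 CPM to 483 to 496 CPM, and T and NK cell markers from 25.5 to 30.1 CPM to 52.6 to 61.0 CPM. The part of such cells in the changes of Cebpe, Gfi1, Irf8, Runx1 and Trib1 was not tested.

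Whether the effect of genotype differed between untreated and 5-FU LSKs was tested as an interaction over all 12 libraries. Positive were 2 of the 9 (Cebpb and Trib1), where 3.02% of the 18696 genes tested were positive, and negative was 1 (Runx1), where 1.99% were negative. For Cebpb the genotype difference was 1.18 log2 units higher after 5-FU (SE 0.09, adjusted p = 4.40e-06, edgeR), going from -1.03 to 0.14. For Trib1 it was 0.77 higher (SE 0.08, adjusted p = 0.000142, edgeR), going from -1.19 to -0.42. For Runx1 it was 0.36 lower, an interaction of -0.36 (SE 0.08, adjusted p = 0.0214, edgeR), going from 0.02 to -0.34, and the call was lost without untreated Tespa1-/- replicate 1 (adjusted p = 0.0504) or replicate 2 (adjusted p = 0.0693). Cebpe and Gfi1, which passed the test between genotypes only after 5-FU, had interactions of 2.76 (SE 1.21, adjusted p = 0.238, edgeR) and 0.89 (SE 0.43, adjusted p = 0.292, edgeR), so a different genotype effect before and after 5-FU was not shown for them. The interaction of Cebpd, 0.60 (SE 0.17), missed the threshold in edgeR (adjusted p = 0.0697) and passed it in DESeq2 (adjusted p = 0.0303). Two-sided exact permutation tests of single genes, 3 libraries against 3, cannot go below p = 0.1, and each pair of groups without overlap had that value.

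**Figure D3:**
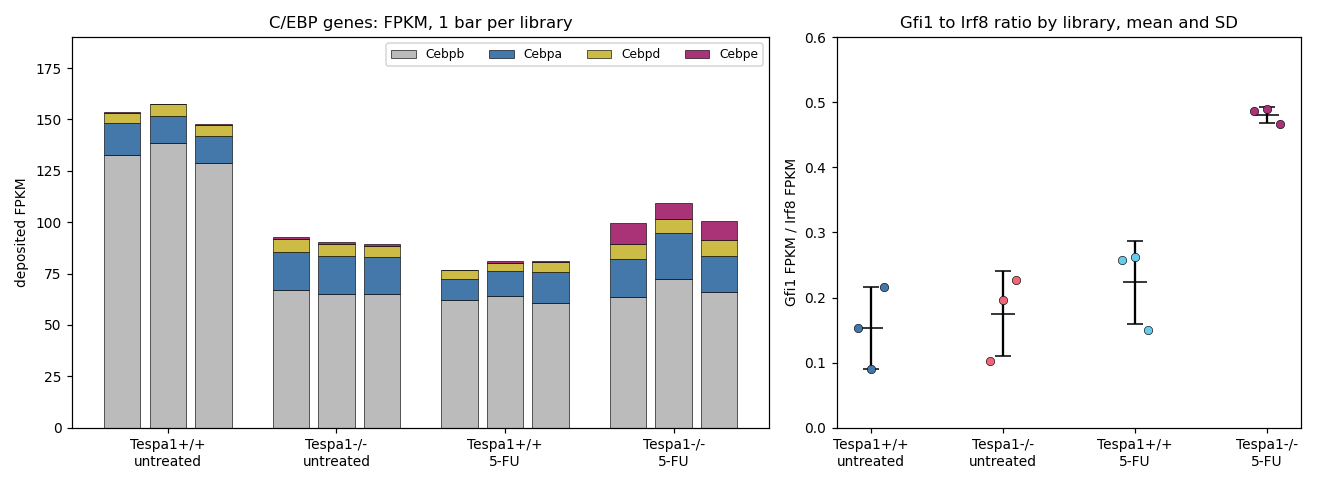
Left, deposited FPKM (y axis) of the 4 C/EBP genes stacked in 1 bar for each of the 12 libraries, grouped on the x axis. Right, ratio of Gfi1 to Irf8 FPKM (y axis) in each library, with group mean and SD (n = 3). The untreated Tespa1+/+ bars are tallest and hold the most Cebpb, and the Tespa1-/- libraries after 5-FU have the broadest Cebpe bands and the highest ratios, 0.467 or more.

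The make-up of the C/EBP family and the balance of opposing regulators were described as shares and ratios of FPKM, which were chosen after the values had been seen and carry no test. The 4 C/EBP genes summed to 148 to 157 FPKM in untreated Tespa1+/+, 89.4 to 92.9 FPKM in untreated Tespa1-/-, 76.8 to 81.3 FPKM in 5-FU Tespa1+/+ and 99.5 to 109 FPKM in 5-FU Tespa1-/- libraries. Cebpb made up 87.2% ± 0.887, 72.3% ± 0.571, 78.2% ± 2.91 and 65.3% ± 1.21 of this sum in the same order of groups (SD, n = 3). Cebpa made up 9.11% ± 1.02, 20.2% ± 0.552, 15.6% ± 2.34 and 18.7% ± 1.65. The share of Cebpe was 7.27 to 10.1% in 5-FU Tespa1-/- libraries and at most 1.29% in any other library.

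The ratio of Gfi1 to Irf8 was 0.467, 0.486 and 0.490 in 5-FU Tespa1-/- libraries and between 0.0900 and 0.262 in the other 9. Its mean was 0.153 ± 0.0634 in untreated Tespa1+/+, 0.175 ± 0.0647 in untreated Tespa1-/- and 0.223 ± 0.0638 in 5-FU Tespa1+/+ LSKs, which overlapped each other. The ratio of Cebpa to Trib1 ran from 0.480 to 0.636 in untreated Tespa1+/+, 0.885 to 1.18 in 5-FU Tespa1+/+, 1.56 to 1.60 in untreated Tespa1-/- and 1.97 to 2.48 in 5-FU Tespa1-/- libraries. These 4 ranges did not overlap, and in both settings the Tespa1-/- libraries held more Cebpa RNA per Trib1 RNA than the Tespa1+/+ libraries.

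Genes most like a member were sought over the 12 libraries among 14934 genes, by the root mean square difference of centred log2(CPM + 1), for the 4 members whose group means spanned more than 1 log2 unit. Closest to Cebpb were Spry2 (0.14) and Junb (0.16), an inhibitor of growth factor signalling and an AP-1 subunit. Closest to Trib1 were Marcksl1 (0.10) and Zfp36 (0.12), the latter encoding a protein that destabilises cytokine mRNAs. Junb had mean levels of 786, 428, 421 and 350 CPM and Zfp36 of 1485, 806, 748 and 553 CPM in untreated Tespa1+/+, untreated Tespa1-/-, 5-FU Tespa1+/+ and 5-FU Tespa1-/- LSKs. Both, like Cebpb and Trib1, were highest in untreated wild type. Trib1 ranked 42nd among the genes closest to Cebpb, and Cebpb 47th among those closest to Trib1 (0.24). Closest to Gfi1 were Lrp4 (0.27) and Mfsd3 (0.28), each with its highest mean in 5-FU Tespa1-/- LSKs. Closest to Cebpe were Olr1 (0.36) and Slfn1 (0.43), at means of 5.79 and 4.88 CPM there and at most 0.409 and 0.0413 CPM in the other groups. Both met the limit of the search, a mean of at least 1 CPM, only through the 5-FU Tespa1-/- libraries. Nothing is therefore read from their likeness to Cebpe. The group means of Spi1 spanned the least of the 9 genes, 0.21 log2 units.

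Lists of genes known to depend on these regulators, or to work with them, were followed beside them. Of 7 early granulocyte genes known as C/EBP targets, 3 (Mpo, Elane and Ctsg) were called higher in untreated Tespa1-/- LSKs and 5 after 5-FU, none lower, beside 1.64% and 7.34% of all genes higher, with medians of 0.38 and 1.02 on the log2 scale against 0.01 and -0.01 for all genes. Elane, the neutrophil elastase of primary granules, was at 67.8 to 72.7 CPM in untreated Tespa1+/+, 112 to 126 in untreated Tespa1-/-, 142 to 145 in 5-FU Tespa1+/+ and 457 to 495 CPM in 5-FU Tespa1-/- libraries. Its log2 fold change between genotypes after 5-FU was 1.71 (SE 0.05). Mpo, the myeloperoxidase of the same granules, had 0.73 (SE 0.05) and Lyz2, lysozyme, 1.58 (SE 0.09). Il6ra (0.14, SE 0.24) and Csf3r (-0.22, SE 0.07), the receptor genes of the list, did not pass the test.

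The 7 late granulocyte genes known as C/EBP targets, which include the secondary granule genes Ltf, Camp, Ngp and Lcn2, were highest in the libraries in which Cebpe was highest. They summed to 0.355 to 0.770 CPM in untreated Tespa1+/+, 2.84 to 4.58 CPM in untreated Tespa1-/-, 2.70 to 6.004 CPM in 5-FU Tespa1+/+ and 611 to 637 CPM in 5-FU Tespa1-/- libraries. Camp, Chil3 and Cd177 were at or under 3 counts in every 5-FU Tespa1+/+ library and passed the filter only through the 5-FU Tespa1-/- libraries, so no count of calls is given for this list. Ltf, lactoferrin, was at 0.780, 1.12 and 0.248 CPM in Tespa1+/+ and 143, 159 and 154 CPM in Tespa1-/- LSKs. Camp, the cathelicidin gene, was at 0, 0 and 3 counts in Tespa1+/+ libraries and was at least 540-fold higher in Tespa1-/- libraries, against a floor of 3 counts per library. In these lists Camp, Ltf, Ngp and Cd177 also stand among the neutrophil markers given above, so the 2 readings are not independent.

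Of 10 monocyte genes known as PU.1 and IRF8 targets, 2 were called higher and 1 lower in untreated Tespa1-/- LSKs (median log2 fold change 0.21 against 0.01 for all genes), where 1.64% of all genes were higher and 3.59% lower. After 5-FU 4 were higher and none lower (median 0.24 against -0.01), where 7.34% of all genes were higher and 5.78% lower. The 3 calls in untreated LSKs (Csf1r, Cybb and Klf4) came to 1, Klf4, when any 1 library other than Tespa1+/+ replicate 1 was left out and with the replicate number as a block. The 4 after 5-FU were Cybb (1.36, SE 0.13) and Ncf4 (0.80, SE 0.13), subunits of the NADPH oxidase, Csf2ra (1.20, SE 0.11), the GM-CSF receptor alpha chain, and Itgam (1.13, SE 0.12), the integrin CD11b. Each of these is also expressed in neutrophils. Csf1r, the receptor that marks monocytes, was called higher in untreated LSKs (0.48, SE 0.09) and had 0.31 (SE 0.12) after 5-FU. Klf4, a monocyte factor, was at 126 to 173 CPM in untreated Tespa1+/+ and 79.4 to 87.5 CPM in untreated Tespa1-/- libraries, a fall by 0.82 on the log2 scale (SE 0.11, adjusted p = 0.00438, edgeR).

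Of 6 genes known to be repressed by Gfi1, none was called in either direction in untreated LSKs by edgeR or DESeq2. In edgeR 1.64% of all genes were higher and 3.59% lower there, and 1 of the 6 (Meis1) had an unadjusted p below 0.05. After 5-FU, 2 were called lower, Meis1 (-0.59, SE 0.07) and Hoxa9 (-0.54, SE 0.15), both regulators of stem and progenitor cells. None was called higher, beside 5.78% of all genes lower and 7.34% higher. Whether the higher Gfi1 of Tespa1-/- LSKs after 5-FU had a part in these values was not tested. Hoxa9 was no longer called, which left 1, without Tespa1+/+ replicate 1 or 2, without Tespa1-/- replicate 1 or 3, with the replicate block and with no filter. The median of the 6 was 0.15, with positive values of Id2, Csf1 and Egr2 that did not pass the test. Among 20 partners and relatives of the 9 genes, 1 was called higher and 3 lower in untreated Tespa1-/- LSKs, out of 19 tested, beside 1.64% and 3.59% of all genes. The 4 calls fell to 2 without Tespa1-/- replicate 1 or without replicate 2. After 5-FU, 3 were higher (Trib2, Gfi1b and Spib) and 2 lower (Runx2 and Runx3), beside 7.34% and 5.78% of all genes. These 5 fell to 2 without Tespa1-/- replicate 1, and to 3 without Tespa1-/- replicate 2 or 3, without Tespa1+/+ replicate 1 or 3, and in the fit of all 12 libraries. Runx3 was at 199 to 206 CPM in untreated Tespa1+/+, 132 to 138 in untreated Tespa1-/-, 147 to 156 in 5-FU Tespa1+/+ and 116 to 129 CPM in 5-FU Tespa1-/- libraries, lower in Tespa1-/- LSKs in both settings (-0.57 with SE 0.05 and -0.29 with SE 0.06 on the log2 scale). Runx2 was also lower in both (-0.51, SE 0.08, and -0.58, SE 0.13), whereas Runx1 was lower after 5-FU only by its test, with the interaction given above.

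**Figure D4:**
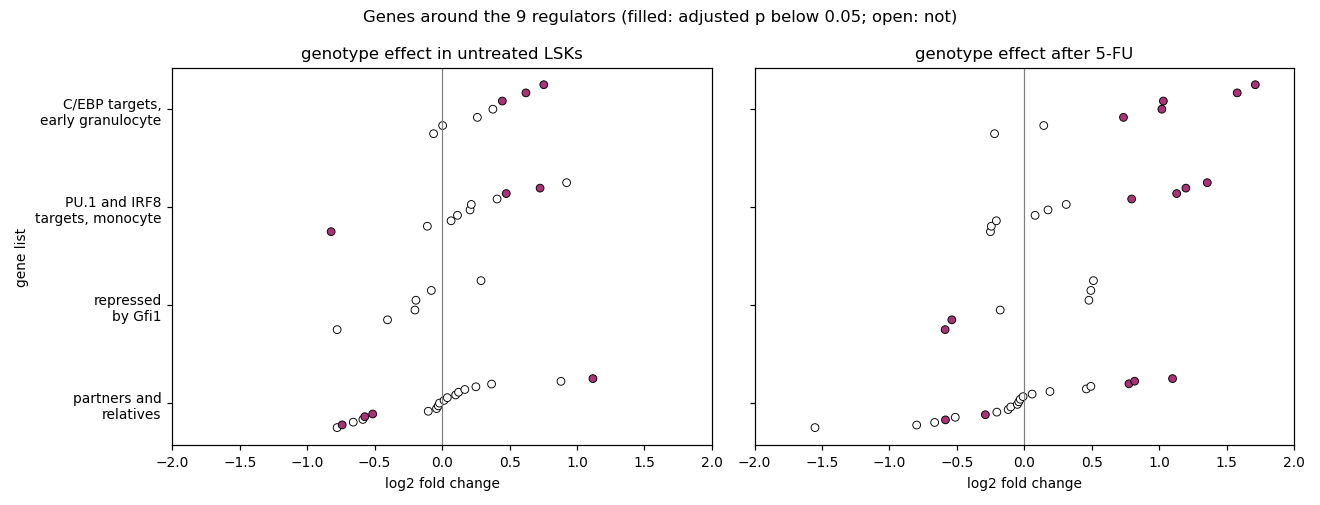
edgeR log2 fold change of Tespa1-/- against Tespa1+/+ LSKs (x axis) for each tested gene of 4 lists (y axis), untreated on the left and after 5-FU on the right, 3 libraries against 3. Filled points have an adjusted p below 0.05. Of the 7 early granulocyte targets, 5 are filled after 5-FU and 3 in untreated LSKs.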

How the data were processed

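Sorted LSKs gave stranded poly-A paired-end libraries, sequenced on a NovaSeq. In the table that the authors deposited, each of the 12 libraries has a column of raw read counts per gene and one of FPKM, which is scaled to transcript length and library size. FPKM followed from the counts: the implied gene length differed between libraries by at most 4.34e-06 of its value over 8529 genes. The submitters' processing notes name CASAVA 1.8, HISAT2, StringTie, edgeR and GRCm38 without roles, and the counter and its strand setting are not given in the sources used here. Symbols and positions are those of the table, and exons were read from GENCODE M21, which places the 9 genes at the same positions.

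Each pair of groups was compared on the counts with edgeR 4.0.16 (R 4.3.3; TMM, filterByExpr, quasi-likelihood test), and genes were called at a Benjamini-Hochberg adjusted p below 0.05. The interaction was fitted over all 12 libraries. CPM used TMM-scaled totals. SEs are those of the log2 fold change, and intervals of counts were not used. The script was tested on simulated data. Alternatives were DESeq2 1.42.0, RLE factors, no TMM, no filter or at least 10 counts in every library, 1 fit over 12 libraries, a replicate block, leaving out each library, and calls with a fold change above 1.5. The 9 genes are named throughout. From each list, up to 3 genes with the smallest adjusted p in the genotype effect after 5-FU or the 5-FU effect in wild type were eligible for naming, together with genes whose values stand beside a result, and other list genes were named after their values were seen. The members and lists were chosen with earlier results of these data known.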

Additional observations from a re-analysis of the deposited data

Results flagged for a closer look

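The effect of genotype on 3 of the 9 genes differed between untreated and 5-FU LSKs by the interaction test of edgeR over 12 libraries. The interaction of Cebpb was 1.18 on the log2 scale, where the genotype effect was -1.03 before and 0.14 after 5-FU. That of Trib1 was 0.77, with effects of -1.19 and -0.42, and that of Runx1 was -0.36, with effects of 0.02 and -0.34. Groups of 3 are too small for the test of a single outlying value used here, so none was run.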

How the results depend on the processing

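The number of the 9 genes called stayed within 1.5 times of the reported one in every alternative but 2. In Tespa1-/- LSKs treated with 5-FU it was 2 instead of 5 under both rules that also ask for a fold change above 1.5, by construction, since the changes of Irf8, Runx1 and Trib1 are smaller. Leaving out 1 library gave 2 to 3, 6 to 6, 3 to 3, 4 to 5 and 2 to 3 called genes in the order of the comparisons above. Single log2 fold changes turned sign only where they were not called. Without 1 library, those in untreated LSKs ranged from -0.0365 to 0.202 for Spi1 and from -0.0101 to 0.0415 for Runx1, which was -0.00167 without a filter. Those of 5-FU in Tespa1+/+ LSKs ranged from -0.745 to 0.997 for Cebpe, -0.0860 to 0.532 for Gfi1 and -0.142 to 0.0990 for Spi1. Those of 5-FU in Tespa1-/- LSKs ranged from -0.0492 to 0.146 for Cebpa and -0.0340 to 0.0625 for Cebpb, and the interaction of Irf8 from -0.139 to 0.0232. The cause was not tested. Samples with the same replicate number showed no shared deviation (correlations from -0.0566 to 0.0253). With 3 libraries in a group these values cannot exclude that the numbers pair them. With a replicate block the counts of called genes were 2, 6, 3, 5 and 3, Cebpa in untreated LSKs was not called (0.39, edgeR adjusted p = 0.0785), and Cebpe with 5-FU in Tespa1+/+ LSKs was at -0.0272. Cebpa in untreated LSKs was also not called without a filter (adjusted p = 0.0709) or in 1 edgeR fit of all 12 libraries (0.105). Other scalings moved the median of all genes by at most 0.05. The depth limits Cebpe most, with 0 to 33 counts in each library outside the 5-FU Tespa1-/- group.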
